A study of Bombyx mori with 4 samples.

Results

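Long protein-coding mRNAs crosslinked to BmVasa were examined in BmN4, a cell line derived from the ovary of the silkworm Bombyx mori that keeps an active piRNA pathway. The members were chosen by the deposited values: every sequence annotated as protein-coding, of 4000 nt or more, whose mean over the 2 deposited libraries was below 100 reads per 1000000 genome-mapped reads (RPM). This rule took 675 of 14300 protein-coding sequences, which were themselves part of 18596 sequences in all. RNA bound to BmVasa was recovered by FAST-iCLIP, in which UV light links protein to RNA, an antibody against BmVasa recovers the complexes and the trimmed RNA is sequenced. All cells were BmN4 cells electroporated with siRNA, either against luciferase (Luc KD, the control, 2 replicates) or against Spindle-E (Spn-E KD, 2 replicates). Replicates had been merged by the authors when they made the table, so each mRNA has 1 value per group and no difference between the groups could be set against the spread between replicates. The depletion of Spn-E itself was not checked here.

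Vasa is a DEAD-box RNA helicase of germ cells and a defining component of nuage, the granules around the nucleus in which piRNAs are amplified. In silkworm germ cells, the PIWI protein Siwi cleaves transposon transcripts guided by its piRNAs, and BmVasa passes the cleaved fragments on to Ago3. Spindle-E is an RNA helicase of the same pathway, and its loss lowers the amount of Siwi loaded with piRNA. Transposon transcripts are the main targets of this pathway, and reads on protein-coding mRNAs are recovered with BmVasa as well. A long mRNA offers more positions for crosslinking than a short one, so its RPM measures reads per molecule type and its RPKM (RPM per kb) measures reads per unit of length.

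The deposited table names gene models by SilkBase identifiers only, and 0 of the 675 identifiers matched the RefSeq gene table of assembly ASM3026992v2. The proteins encoded by the members and their genome positions are therefore not given, and no sequence is printed. The protein-coding label rests on the authors' annotation. Lengths that were a multiple of 3 made up 32.3% of the members and 33.7% of all protein-coding sequences. Lengths unrelated to a reading frame would give such shares, and whether untranslated regions are included was not checked.

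Nearly every long mRNA was seen in the CLIP libraries, but with few reads each. Reads per member ran from 0 to 113 in Luc KD (median 14) and from 0 to 100 in Spn-E KD (median 13). At least 1 read fell on 664 members in Luc KD (98.4%) and on 658 in Spn-E KD (97.5%). The remaining 11 members of the control and 17 of the Spn-E KD library were without a read, and 5 members were without one in either library. These zeros were shallow: members at 0 in Spn-E KD had at most 5 reads in Luc KD, and members at 0 in Luc KD had at most 6 in Spn-E KD. A count of 0 allows a level of up to 2.96 RPM in the control and 2.83 RPM after Spn-E KD.

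The read level varied widely among the members. The middle of the distribution lay between 5.93 and 32.6 RPM in Luc KD (quartiles, median 13.8) and between 5.66 and 25.5 RPM in Spn-E KD (median 12.3). A mean under 10 RPM was found for 278 members, 10 to 40 RPM for 293 and 40 RPM or more for 104. Ranked by mean RPM, the top 121 members (17.9%) held 50% of the member reads in Luc KD, and the top 128 (19.0%) did so in Spn-E KD. The order of the members was similar in both libraries, with a Spearman's rho of 0.905 between their RPM over the 675 members. This value is a description, since all members share the same 2 libraries.

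**Figure D1:**
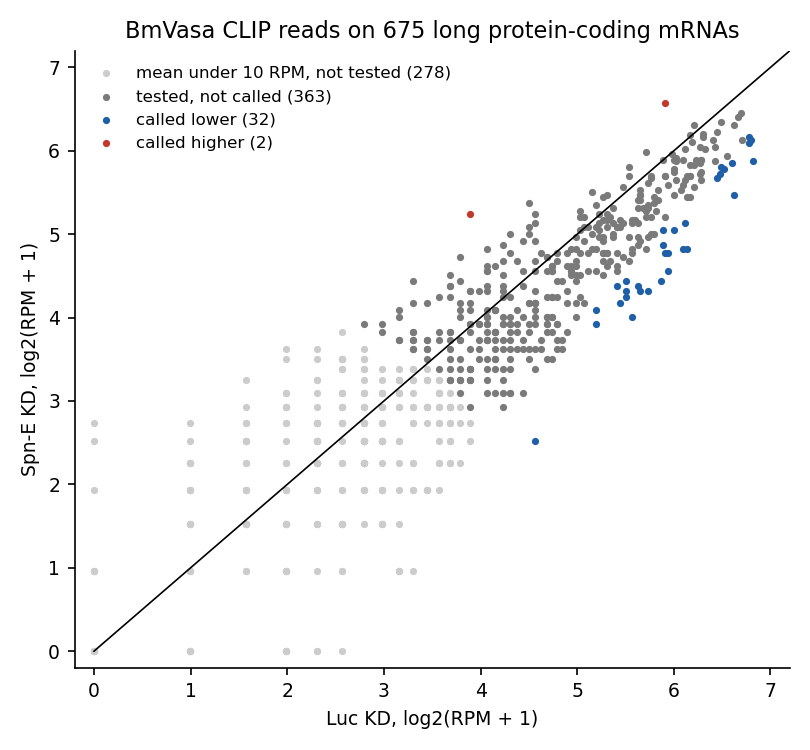
Level of the 675 long protein-coding mRNAs in the BmVasa CLIP library of Luc KD (horizontal axis) and Spn-E KD (vertical axis), both as log2(RPM + 1); each point is 1 mRNA and the line marks equal levels. Most points of tested mRNAs (77.1%) lie below the line, and 71.1% of all tested protein-coding mRNAs were lower too. Called lower were 32 members (8.06% of those tested) and called higher 2 (0.504%), beside 8.23% and 3.74% of all tested sequences.

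Per unit of length, the median level of the long mRNAs was near that of all protein-coding sequences, while their level from summed reads was lower. The median was 2.53 RPKM in the control (lowest 0, highest 22.1) and 2.06 RPKM after Spn-E KD (lowest 0, highest 17.2). Beside it, the Luc KD median was 3.16 RPKM for mRNAs of 2000 to under 4000 nt and 2.52 RPKM for those under 2000 nt, both under 100 RPM. It was 2.69 RPKM for all protein-coding sequences. Summed RPM per summed length in Luc KD was 3.80 RPKM for the members, 5.41 at 2000 to under 4000 nt and 6.10 under 2000 nt. For all protein-coding sequences, with those at or above 100 RPM included, it was 7.77 RPKM. Since length and RPM chose the members, these levels are given without a test. They were not set against the amount of each mRNA in the cells. Read levels grew little with length within the group: Spearman's rho of length with RPM was 0.157 in the control and 0.146 after Spn-E KD, and with RPKM it was −0.084 and −0.11. The median in Luc KD was 2.65 RPKM for the 324 members of 4000 to 4999 nt, 2.60 RPKM for the 158 of 5000 to 5999 nt and 2.76 RPKM for the 124 of 6000 to 7999 nt. It was 2.14 RPKM for the 47 of 8000 to 11999 nt and 0.820 RPKM for the 22 of 12000 nt or more. The low RPKM was thus found at the far end of the length range, while the median RPM of those 22 members, 22.2 in Luc KD, was the highest of the 5 length classes. The limit of 100 RPM on the mean also caps RPKM more tightly the longer the mRNA. How much of the lower RPKM of the longest members follows from the rule was not tested.

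**Figure D2:**
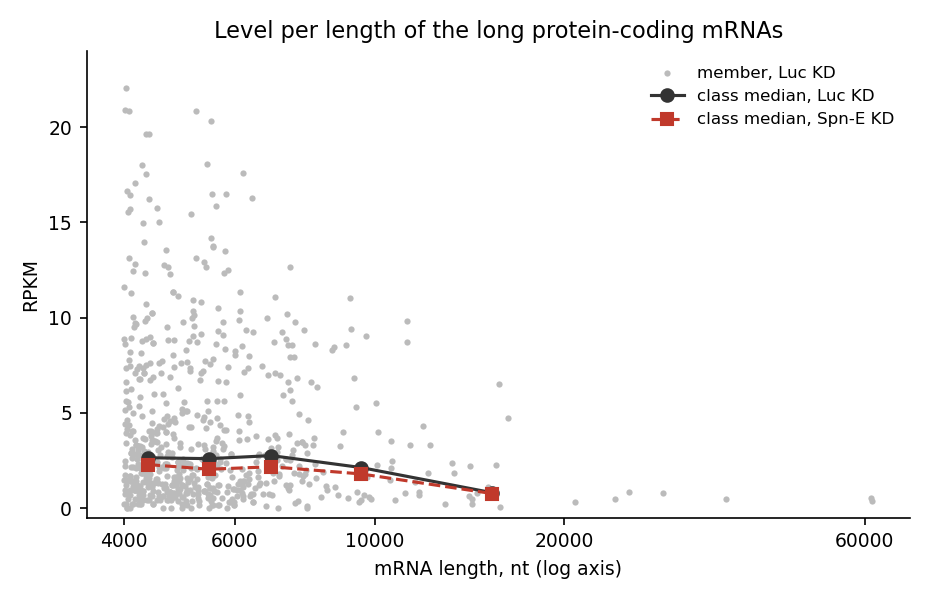
Level per length (RPKM, vertical axis) against mRNA length in nt (horizontal log axis). Grey points are single members in Luc KD, and the joined symbols are medians of 5 length classes in Luc KD (circles) and Spn-E KD (squares), which stay between 2.05 and 2.76 RPKM up to 7999 nt and drop to 0.820 and 0.776 RPKM at 12000 nt or more.

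The longest gene models had low coverage, and the limit of 100 RPM caps RPKM most tightly for them. The longest member, of 61688 nt, received 23 reads in the control and 39 after Spn-E KD, or 0.368 and 0.597 RPKM. The next, of 61459 nt, received 34 and 35 reads, or 0.547 and 0.538 RPKM. Another, of 36175 nt, received 17 reads in each library, or 0.464 and 0.444 RPKM. The intervals of all 3 ratios between the libraries included no change. At the other end, the member with the highest level per length in Luc KD was 4030 nt long and had 90 reads there (22.1 RPKM) and 58 in Spn-E KD (13.6 RPKM).

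At the limits of the rule, single sequences on either side are given by their values. The shortest member was 4003 nt long. The longest protein-coding mRNA just outside fell 1 nt short of the limit and had 2 reads in the control and 1 after Spn-E KD. The highest mean among the members was 94.8 RPM (104 reads in the control and 92 after Spn-E KD). The lowest among the 36 long mRNAs left out for their level was 107 RPM (101 and 121 reads), and the highest was 1329 RPM.

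In total the members held 15653 reads in the control and 12838 after Spn-E KD. Of all reads on the library of gene models and transposons (gene-library reads), this was 4.08% in the control (Wilson interval at 95%: 4.01 to 4.14) and 3.19% after Spn-E KD (3.13 to 3.24). The share was 0.891 percentage points lower in Spn-E KD (95% Newcombe interval −0.974 to −0.808, counting error only). Of the protein-coding reads alone, the members held 8.68% in the control and 8.19% after Spn-E KD, a difference of −0.489 points (−0.677 to −0.301). They make up 17.8% of the summed length of the protein-coding sequences, and with the 36 more abundant long mRNAs the figures are 18.9% of the length and 13.5% of protein-coding reads in Luc KD. The limit of 100 RPM removes only abundant mRNAs, so the share of the members without those 36 is low by the rule itself.

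The comparison of Spn-E KD with Luc KD asked whether reads of BmVasa on these mRNAs differed when less Siwi-piRISC was present. Summed over the members, RPM was lower in Spn-E KD by 21.6% (95% Clopper-Pearson interval 19.8 to 23.4), a log2 ratio of −0.35 (−0.39 to −0.32). The interval covers counting error in 2 merged libraries and not the spread between replicates. By the same measure all protein-coding sequences, members included, were lower by 16.9%, and those under 100 RPM by 17.4%. Less of an mRNA in the cells and less binding per mRNA cannot be told apart from these reads. RPM is also a share: the most abundant transposon sequence of the table went from 18.0% to 27.3% of gene-library reads. On the base of all gene-library reads the log2 ratio of the members was −0.36, and leaving that transposon out of this base gave −0.18. Leaving it out of the genome-mapped reads gave −0.30.

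For single mRNAs, the log2 fold change was taken on log2(RPM + 1), which understates changes of low mRNAs, and reads were compared by an exact binomial test (two-sided). Its p-values were adjusted after Benjamini and Hochberg over all 4727 sequences of the table with a mean of at least 10 RPM. Of the members, 397 passed that minimum and 278 did not. The 278 had at most 14 reads in either library. They summed to 1545 reads in the control and 1382 after Spn-E KD, with 170 lower and 103 higher in Spn-E KD by RPM.

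Of the 397 tested members, 32 were called lower and 2 higher in Spn-E KD. Over all 4727 tested sequences the called shares were 8.23% lower and 3.74% higher, against 8.06% and 0.504% of the tested members. The share called lower was thus near the background of the table and is not a result about long mRNAs. The split moved with the scaling: after centring on the tested protein-coding mRNAs, 10 members were called lower and 3 higher, while 2.94% of all tested sequences were lower and 6.66% higher. The share called higher was nearer to that of all tested protein-coding mRNAs, of which 7.31% were called lower and 1.13% higher. By size alone, 35 members (8.82%) were at least 2-fold lower and 3 (0.756%) at least 2-fold higher, beside 9.54% and 3.13% of all tested sequences. These calls separate 2 merged libraries beyond counting error. The spread between replicates is unknown here. If the libraries are assumed to vary by a biological coefficient of variation of 0.2, edgeR's exact test called 0 members, beside 0.169% of all tested sequences, and 18 members (4.53%) had an unadjusted p under 0.05, beside 7.13%. At 0.1 it called 10 members (2.52%), all lower, beside 4.04% of all tested sequences.

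The members called lower were those with more reads. Their mean RPM had a median of 43.3, beside 25.0 for all tested members, and no member with fewer than 28 reads over both libraries was called. The log2 fold changes of the 32 ran from −2.05 to −0.61 with a median of −1.12, and 20 of them were at least 2-fold lower. The other 15 members that were at least 2-fold lower were not called.

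The largest falls past the threshold were seen for a pair of gene models. KWMTBOMO15305, a gene model of 10104 nt, had 23 reads (22.7 RPM) in the control and 5 reads (4.72 RPM) after Spn-E KD. Its log2 fold change was −2.05 (adjusted p = 0.00632, exact binomial test). Without the added 1 RPM, the log2 ratio of reads was −2.27 (95% Clopper-Pearson interval −4.02 to −0.84). KWMTBOMO09011, of 4003 nt, fell from 47 reads (46.4 RPM) to 16 reads (15.1 RPM). Its log2 fold change was −1.56 (adjusted p = 0.00081, exact binomial test), and the log2 ratio of its reads was −1.62 (interval −2.54 to −0.78). Both were still called with an assumed variation of 0.1 and no longer with 0.2.

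Only 2 members were called higher by the exact binomial test at the authors' scaling. KWMTBOMO08470, of 4770 nt, had 14 reads (13.8 RPM) in the control and 39 reads (36.8 RPM) after Spn-E KD. Its log2 fold change was 1.35 (adjusted p = 0.0156, exact binomial test), and the log2 ratio of its reads was 1.41 (95% Clopper-Pearson interval 0.50 to 2.41). KWMTBOMO12330, of 5645 nt, was the more abundant, with 60 reads (59.3 RPM) in the control and 100 reads (94.4 RPM) after Spn-E KD. Its log2 fold change was 0.66 (adjusted p = 0.0389, exact binomial test), and the log2 ratio of its reads was 0.67 (interval 0.20 to 1.16). Neither was called with an assumed variation of 0.1. What the 4 named gene models encode is not given by the table.

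Most tested members lay below 0 rather than a few far below. The median log2 fold change of the 397 was −0.35 (quartiles −0.65 and −0.061), and 306 of them (77.1%) were lower in Spn-E KD. Over all tested protein-coding mRNAs the median was −0.30 and 71.1% were lower. The direction of the median held under every scaling run, but its size did not: it was −0.063 after centring on the tested protein-coding mRNAs, where 228 of 397 members (57.4%) were lower. The ratios of the members still varied more than counting error alone would give. The Pearson statistic of their reads around their common ratio was 1.65 per degree of freedom, where 1 stands for counting error, beside 1.72 for protein-coding mRNAs of 2000 to under 4000 nt and 3.57 for transposon-annotated gene models of 4000 nt or more.

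**Figure D3:**
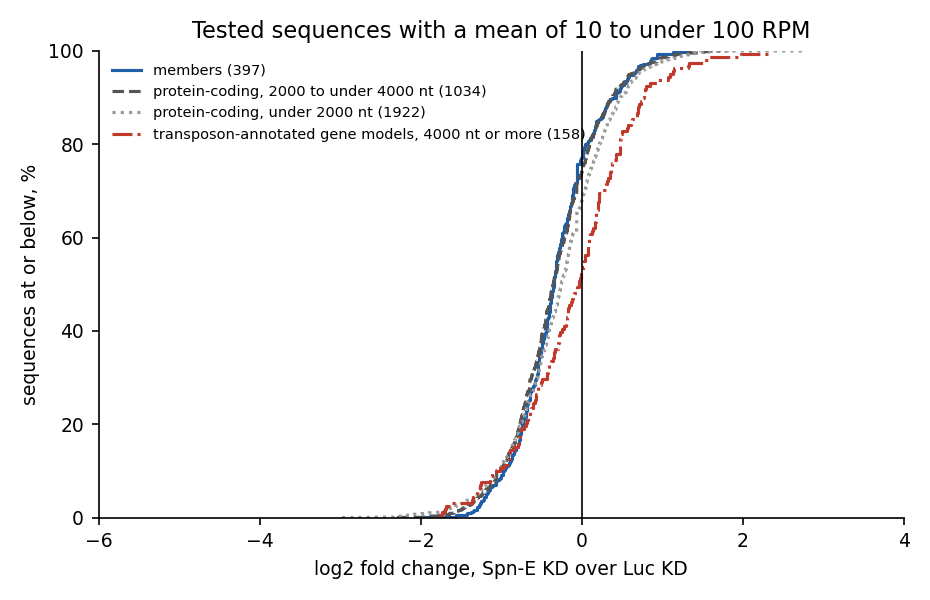
Cumulative share of tested sequences (vertical axis, %) at or below a log2 fold change of Spn-E KD over Luc KD (horizontal axis), for 397 members, 1034 protein-coding mRNAs of 2000 to under 4000 nt, 1922 under 2000 nt and 158 transposon-annotated gene models of 4000 nt or more, all with a mean of 10 to under 100 RPM. The curve of the members runs close to that of the mRNAs of 2000 to under 4000 nt (medians −0.35 and −0.35) and left of the transposon-annotated gene models (−0.034).

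The long mRNAs differed from short mRNAs beyond counting error, while the difference from those of middle length did not pass it. With the same limit of 100 RPM, the log2 ratio of summed reads was −0.087 for 979 mRNAs under 500 nt (95% Clopper-Pearson interval −0.17 to −0.0062) and −0.18 for 4283 of 500 to 999 nt (−0.21 to −0.15). It was −0.27 for 5743 of 1000 to 1999 nt (−0.29 to −0.25), −0.32 for 1784 of 2000 to 2999 nt (−0.35 to −0.30) and −0.33 for 645 of 3000 to under 4000 nt (−0.37 to −0.29). Among the members it was −0.34 (−0.40 to −0.29) at 4000 to 4999 nt, −0.37 (−0.43 to −0.30) at 5000 to 5999 nt, −0.37 (−0.44 to −0.29) at 6000 to 7999 nt and −0.39 (−0.49 to −0.28) at 8000 to 11999 nt. The ratio was lower from class to class up to that of 2000 to 2999 nt, although the intervals of the first 2 classes overlap, and the intervals of the classes from 2000 to 11999 nt overlap one another.

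**Figure D4:**
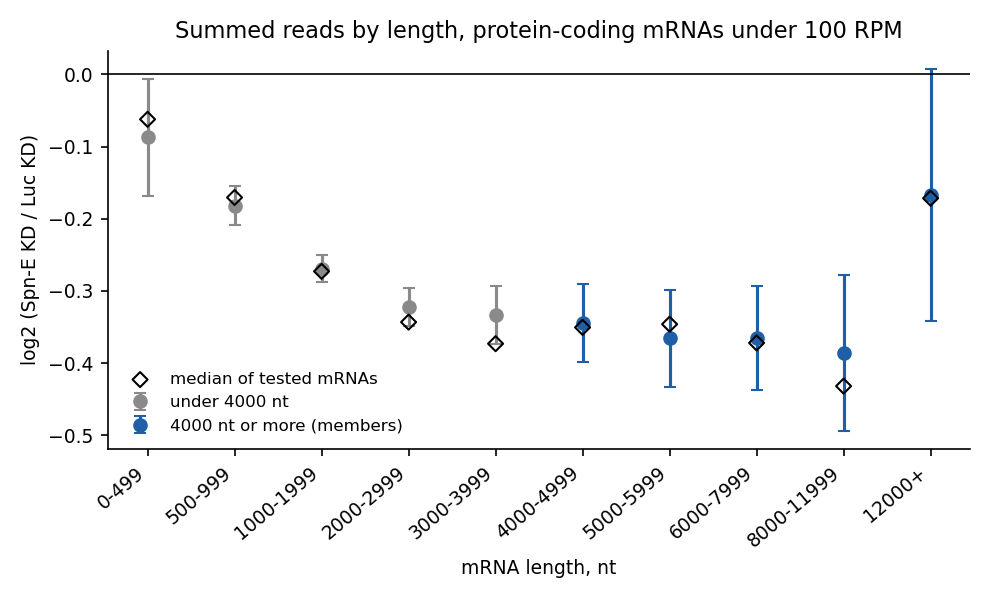
Log2 ratio of summed reads, Spn-E KD over Luc KD scaled to genome-mapped reads (vertical axis), in 10 length classes of protein-coding mRNAs with a mean under 100 RPM (horizontal axis, nt). Filled circles are summed reads with 95% Clopper-Pearson intervals (grey under 4000 nt, blue for the members) and open diamonds are medians of the log2 fold changes of tested mRNAs; the ratio goes from −0.087 under 500 nt to −0.39 at 8000 to 11999 nt and is −0.17 at 12000 nt or more.

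Taken directly, the difference between the members and the 2429 mRNAs of 2000 to under 4000 nt was −0.026 on the log2 scale (95% Wald interval on reads −0.066 to 0.014). Against the 11005 mRNAs under 2000 nt it was −0.12 (−0.15 to −0.079), and against the 403 transposon-annotated gene models of 4000 nt or more, whose own log2 ratio was −0.075, it was −0.28 (−0.34 to −0.21). These differences do not depend on the scaling of the libraries, since a scaling shifts both sides alike. Of the 158 tested transposon-annotated gene models of that length, 12 were called lower and 9 higher. The 36 long mRNAs at or above 100 RPM had a log2 ratio of −0.24, and the members lay −0.11 from them (−0.17 to −0.055). Because reads of single mRNAs vary beyond counting error, these intervals are too narrow for a statement on the groups of cells.

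In summed reads, the 22 members of 12000 nt or more lay nearer to no change. They held 562 reads in the control and 524 after Spn-E KD, a log2 ratio of −0.17 (95% Clopper-Pearson interval −0.34 to 0.0077), and lay 0.19 above the other members (95% Wald interval 0.017 to 0.37). None of the 16 tested among them was called by the exact binomial test in either direction, which at the 8.23% and 3.74% of the whole table says little for so few. Among the 22, the 7 members of 20000 nt or more held 139 reads in the control and 165 after Spn-E KD. Their log2 ratio was 0.18 (−0.15 to 0.52), so a difference was not detectable at this depth. The −0.17 of the class includes these 7, whose ratio had the opposite sign. It therefore does not describe the rest of the 22, which were not summed apart. All these intervals cover counting error only, and the Pearson statistic of the 16 tested was 1.36 per degree of freedom. A change of the ratio with length from 12000 nt was not tested.

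The difference from short mRNAs passed counting error in the highest band of read level. Among mRNAs with a mean of 40 to under 100 RPM, the log2 ratio of summed reads was −0.41 for the 104 members (95% Clopper-Pearson interval −0.46 to −0.36), −0.40 for 148 mRNAs of 2000 to under 4000 nt and −0.17 for 221 under 2000 nt. The members lay −0.24 below the last group (95% Wald interval −0.31 to −0.18). The medians of the log2 fold changes were −0.40, −0.44 and −0.18 in the same order. At 20 to under 40 RPM, the members were at −0.35 and the short mRNAs at −0.32, a difference of −0.024 (−0.096 to 0.048). At 10 to under 20 RPM, they were at −0.28 and −0.27, a difference of −0.012 (−0.098 to 0.074). The mRNAs of 2000 to under 4000 nt were at −0.32 at 20 to under 40 RPM and at −0.33 at 10 to under 20 RPM. Whether the difference of the members from short mRNAs varied with the read level was not tested.

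**Figure D5:**
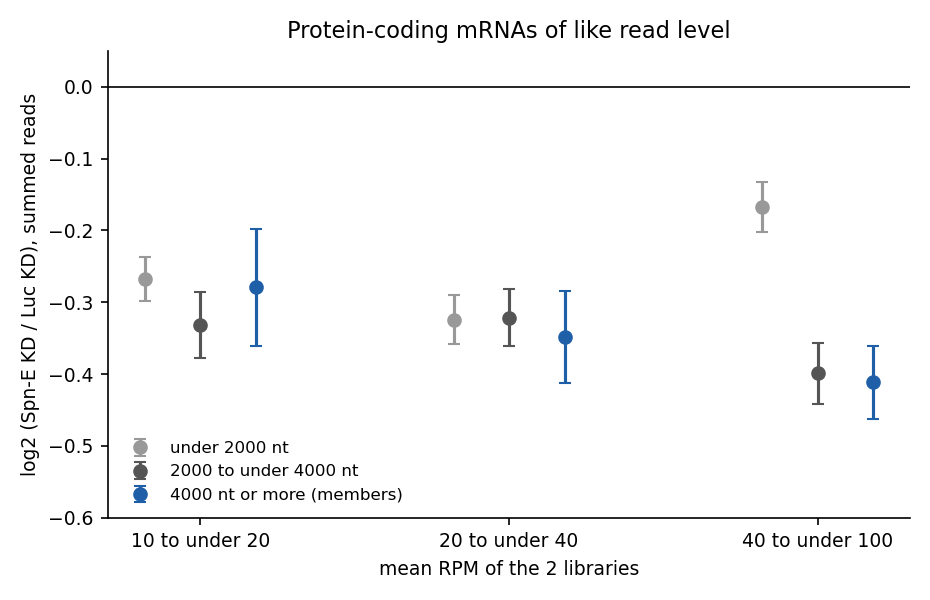
Log2 ratio of summed reads, Spn-E KD over Luc KD (vertical axis), for protein-coding mRNAs under 2000 nt, of 2000 to under 4000 nt and of 4000 nt or more, in 3 bands of mean RPM (horizontal axis); bars are 95% Clopper-Pearson intervals. The intervals of the 3 lengths overlap in the lower bands. At 10 to under 20 RPM the mRNAs of 2000 to under 4000 nt are lowest, at −0.33. At 40 to under 100 RPM the mRNAs under 2000 nt are at −0.17 while the members are at −0.41.

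Calls were more frequent in the higher bands, in members and in shorter mRNAs alike. At 40 RPM or more, 19 of 104 members (18.3%) were called lower and 1 higher, with a smallest called log2 fold change of 0.61 in size. In that band 16.9% of the mRNAs of 2000 to under 4000 nt and 10.9% of those under 2000 nt were called lower. Called higher were 3 of 148 and 6 of 221. At 20 to under 40 RPM, 12 of 130 members (9.23%) were called lower and 1 higher, and the smallest called was 1.03. The shorter groups had 5.35% and 8.71% lower, with 5 of 355 and 3 of 505 higher. At 10 to under 20 RPM, 1 of 163 members (0.613%) was called lower, at a size of 2.05, and 0 higher. The shorter groups had 2.64% and 2.76% lower, with 0 of 531 and 3 of 1196 higher. These shares were not compared by a test, and shares over all tested sequences are not given by band. The read level therefore set how small a difference could be called.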

How the data were processed

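BmVasa FAST-iCLIP libraries of BmN4 cells were analysed from 1 deposited table with 4 samples in 2 groups, Luc KD and Spn-E KD, as the sample titles give them. The authors trimmed adaptors (cutadapt 4.0), merged PCR copies that carried the same barcode, aligned them with STAR 2.7.9a to the genome assembly of SilkBase, then to a library of gene models and transposons with Bowtie 1.3.1, and counted sense reads with SAMtools 1.15. Reads with several matches were placed at random or counted more than once, so gene models with near-identical copies are uncertain. The deposited counts merge the 2 replicates of each group. The deposited RPM values are counts per 1000000 genome-mapped reads (1012269 in Luc KD, 1059323 in Spn-E KD), and the deposited RPKM values are RPM per kb of length, both computed by the authors.

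The members and lists were chosen with earlier results of these data known. Merging left no replicates, so the exact binomial test, with p-values adjusted at 0.05 (Benjamini-Hochberg) across all genes with a mean of at least 10 RPM, compares 2 libraries of reads and not the conditions. The pseudocount was 1 RPM. Intervals (95%) and the limit of 3 reads behind a count of 0 cover only counting error. Named were the 2 largest rises and 2 largest falls among called members with more than 3 reads in both libraries. Alternatives covered the rule, the scaling, the minimum, the pseudocount and, with an assumed variation, the exact test of edgeR. The code was tested on simulated data. Versions were edgeR 4.0.16 in R 4.3.3 and, in Python 3.11.15, pandas 2.3.3, scipy 1.17.1, matplotlib 3.10.9, numpy 2.4.6 and statsmodels 0.14.6.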

Additional observations from a re-analysis of the deposited data

How the results depend on the processing

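No paired analysis was possible because replicates were merged in the table, and none was left out in turn for the same reason. Values keep the authors' scaling unless another is named. Under each of the 7 alternatives the share of the long mRNAs was lower in Spn-E KD. The difference was −1.49 points at 3000 nt, −0.55 at 5000 nt, −1.25 with no upper limit on RPM and −0.586 with a limit of 50 RPM. It was −0.589 of gene-library reads without the most abundant transposon, −0.489 of protein-coding reads and −0.334 of genome-mapped reads. The log2 ratio of summed RPM was −0.31 with no upper limit. By construction it moved with the scaling, to −0.18 on gene-library reads without that transposon, −0.13 under TMM and −0.054 after centring on protein-coding mRNAs. The median log2 fold change was −0.18, −0.13 and −0.063 under these scalings and −0.31 with a pseudocount of 5 RPM. Chosen after seeing the data, 2 further scalings separate the transposon from the base: on all gene-library reads the ratio was −0.36 and 32 members were called lower, and on genome-mapped reads without the transposon the ratio was −0.30, the median −0.29 and 27 were lower. Those called lower were 8.06% and 6.80% of tested members, beside 8.29% and 7.07% of all tested sequences. Called higher were 2 members each time (0.504%), beside 3.72% and 4.13%.

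Members called lower numbered 16 on gene-library reads without the most abundant transposon, 13 under TMM and 10 after centring, all of them among the 32, while 3 were called higher each time. Over all sequences these scalings called 252 higher and 224 lower, 273 and 180, and 315 and 139. The shares called lower were 4.03%, 3.27% and 2.52% of tested members, beside 4.74%, 3.81% and 2.94% of all tested sequences. Called higher were 0.756% of tested members each time, beside 5.33%, 5.78% and 6.66%. With no minimum RPM, 18 of 670 tested members were called lower and 0 higher. At a minimum of 5 RPM, 27 of 534 were lower and 1 higher, and at 20 RPM 36 of 234 and 2. Shares over all sequences are not given for these minima, so these counts are no result about long mRNAs. At a length limit of 3000 nt, 52 of 700 were lower and 4 higher, and at 5000 nt 19 of 227 and 1. With no upper limit on RPM, 48 of 433 (11.1%) were lower and 6 (1.39%) higher. The members themselves change under these limits, while the whole table stays at 8.23% lower and 3.74% higher. With an assumed variation of 0.1, 10 (2.52%) were lower and 0 higher, beside 4.04% of all tested sequences called in either direction. With 0.2, 0 and 0 were called (18 at an unadjusted p under 0.05), and with 0.4, 0 and 0 (0 at an unadjusted p under 0.05).

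The difference from mRNAs of 2000 to under 4000 nt turned to 0.0062 with no upper limit on RPM, within its interval of −0.027 to 0.039. Against other sequences it was −0.12 (under 2000 nt) and −0.28 (transposon-annotated gene models). The median level was 2.73 RPKM with no upper limit and 2.06 RPKM in Spn-E KD. With at least 3 reads, 91.9% of members counted as seen in Luc KD. Of 32 values of the 4 named mRNAs, 22 kept their direction and call and 10 lost the call, all under an assumed variation.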
